A study of Mus musculus with 8 samples.

Results

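The clustered protocadherins, the genes of a single tandem array on mouse chromosome 18, were followed through 8 sarcomas with and without deletion of Epas1, the gene of HIF-2α. The members were selected by symbol, as the rows of the counts table named Pcdha, Pcdhb, Pcdhg or Pcdhac with a number, and the family was chosen with the KPH2-against-KP results for Pcdhb16 and Pcdhb17 already known. This gave 58 of 26667 rows, namely 14 alpha, 22 beta and 22 gamma members. Every difference between KP and KPH2 for a member is therefore a description and not a test.

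Protocadherins are cadherin-like proteins of the cell surface that bind the same isoform on a facing cell. In neurons each cell switches on its own combination of alpha, beta and gamma members, which lets a neuron tell its own branches from those of other cells. Each alpha and gamma gene supplies a long variable first exon with its own promoter, which is spliced to constant exons shared within its family, whereas each beta gene is a single exon. The C-type members (Pcdhac1, Pcdhac2, Pcdhgc3, Pcdhgc4 and Pcdhgc5) lie at the ends of the alpha and gamma families and are used in neurons less by chance choice than the others. CTCF and cohesin join the chosen promoters to distant enhancers, and DNA methylation is known to keep the other promoters silent.

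RNA was sequenced from fixed, paraffin-embedded sections of undifferentiated pleomorphic sarcoma (UPS), a soft tissue tumour with no clear line of differentiation. The 4 KP tumours (replicates 5 to 8) carried floxed Trp53 with Epas1 left intact. The 4 KPH2 tumours (replicates 1 to 4) carried the KP alleles and floxed Epas1. In both groups adenoviral Cre was injected into a hind limb muscle of mixed 129 and C57BL/6 mice of either sex that were at least 8 weeks old, so that only infected cells recombine and the unrecombined cells of the host stay in the section. The end point was a fixed time after Cre, 7 weeks, or a limit on tumour size. The libraries held 6463221 to 13155510 counted reads. The study left 1 knockout tumour out of its test, having found it a technical outlier in a principal component analysis of raw counts. The tumour absent from its 7-tumour table is KPH2 1. The groups compared here are therefore KP 5 to 8 (n = 4) and KPH2 2 to 4 (n = 3), with KPH2 1 given apart. Any placement of KPH2 1 beside the KP range, and any fit with all 8 tumours, carries that limit. Epas1 itself stood at 59.2, 83.2, 86.9 and 84.1 CPM in KP 5 to 8, where CPM are counts per 1000000 reads of the TMM-scaled library. It was at 32.6 CPM in KPH2 1 and at 53.4, 37.7 and 42.5 CPM in KPH2 2 to 4. All 4 KPH2 tumours were below all 4 KP tumours, KPH2 1 lowest of all, but over all genes the difference between the 7 tumours missed the threshold (log2 fold change -0.81 ± 0.19 SE, adjusted p = 0.0742, edgeR's quasi-likelihood test). Its adjusted p ran from 0.0115 to 0.219 over the alternative settings and passed in 2 of 13, with DESeq2 (0.0115) and without KP 5 (0.0442). Whether the remaining Epas1 reads come from unrecombined cells or from the rest of the gene cannot be told apart in whole sections.

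The array spans chr18:36930285-37841873 on GRCm38, from Pcdha1 to Pcdhgc5, with all members on the plus strand and in the order alpha, beta, gamma. Of the 58 members, 39 passed the filter on low counts: 22 of 22 gamma, 16 of 22 beta and 1 of 14 alpha members. The 19 that failed were Pcdhac1, Pcdha1 to Pcdha12 and 6 beta members. Pcdha1, Pcdha2, Pcdha4 and Pcdhb1 had no count in any tumour, which allows up to 3 counts per library, or 0.223 CPM in KP 5 and 0.445 CPM in KP 7. The Pcdha4 value has a further limit, because the table holds a second row, Pcdha4-g, over the same first exon. Reads in the shared constant exons match all genes of a family, and reads that fit 2 paralogs equally were not counted, and close paralogs are therefore uncertain. The overlap mode and strand setting of the counting are not given in the sources used here, so how constant-exon reads were assigned is not known, and the CPM and CPM per kb of alpha and gamma members may hold some of them.

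Gamma members made up most of the family's reads in every tumour. In bulk sections fewer cells of a type and less RNA per cell cannot be told apart. Their summed level averaged 604 ± 68.8 CPM over the 4 KP tumours and 508 ± 69.9 CPM over KPH2 2 to 4 (n = 3; errors are SD). The 8 tumours ran from 441 CPM in KPH2 2 to 674 CPM in KP 7, with KPH2 1 at 537 CPM. The beta members summed to 46.0, 75.0, 95.8 and 56.5 CPM in KP 5 to 8, to 51.5 CPM in KPH2 1 and to 85.5, 104 and 158 CPM in KPH2 2 to 4. The KPH2 2 to 4 values were at the upper end, though KP 7 was above KPH2 2, and KPH2 1 was within the KP range. The alpha members summed to 1.11, 2.41, 1.93 and 2.04 CPM in KP 5 to 8, to 0.320 CPM in KPH2 1 and to 0.630, 11.2 and 4.51 CPM in KPH2 2 to 4. Gamma thus took 93.0% of the family's CPM in KP 5 and 75.6% in KPH2 4, with the beta share going from 6.79% to 23.7% in the same tumours. Summed over all 58 members the level was 674 ± 82.3 CPM in KP and 630 ± 89.7 CPM in KPH2 2 to 4, a difference smaller than the spread within each group.

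**Figure D1:**
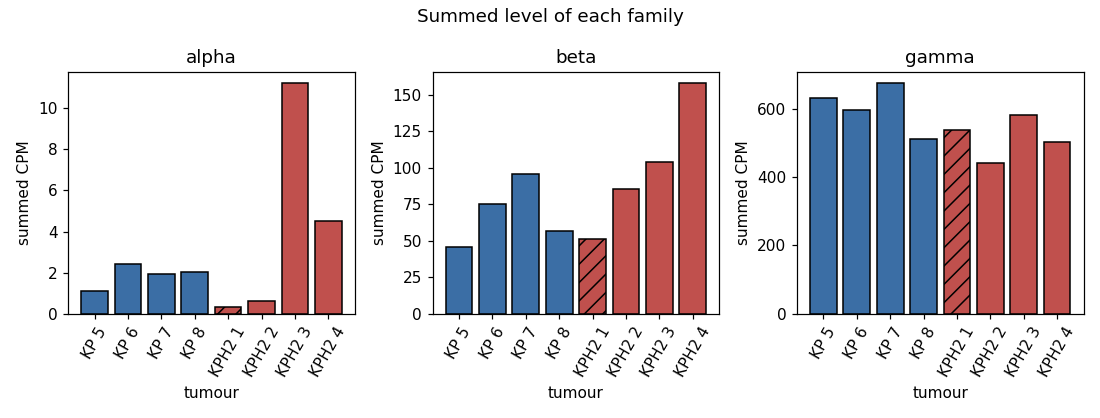
Summed CPM of the alpha, beta and gamma members (vertical axes, a different scale in each panel) in each tumour (horizontal axis); blue bars are KP, red bars KPH2, and the hatched bar is KPH2 1. The beta sum is highest in KPH2 4 (158 CPM) and the gamma sum in KP 7 (674 CPM), while alpha exceeds 3 CPM only in KPH2 3 and KPH2 4.

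Pcdhb16, a beta member of 1 exon at chr18:37477768-37483038, had the largest positive difference of the 39 members that passed. It was at 11.4, 11.2, 6.23 and 6.49 CPM in KP 5 to 8, at 10.5 CPM in KPH2 1 and at 28.8, 20.9 and 55.2 CPM in KPH2 2 to 4. KPH2 2 to 4 were all above KP, and KPH2 1 lay among the KP tumours. The log2 fold change of KPH2 2 to 4 over KP was 1.98 ± 0.38 SE, and 1.71 with KPH2 1 included. Pcdhb16 was the most abundant beta member by CPM in KP 5, KP 6, KPH2 2 and KPH2 4, and supplied 24.7% of all beta CPM in KP 5, 6.50% in KP 7 and 35.0% in KPH2 4.

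Pcdhb17, the neighbouring gene at chr18:37485021-37488290, showed a smaller difference and the groups overlapped. Its values were 5.79, 8.21, 8.30 and 14.6 CPM in KP 5 to 8, 10.7 CPM in KPH2 1 and 14.6, 10.3 and 26.6 CPM in KPH2 2 to 4. KPH2 4 was well above the KP range, KPH2 2 lay level with KP 8, and KPH2 3 was among the KP tumours. The log2 fold change was 0.89 ± 0.40 SE. Per kilobase of exon, Pcdhb17 stood at 2.82 ± 1.15 CPM per kb in KP against 1.67 ± 0.54 for Pcdhb16, while in KPH2 2 to 4 the order was turned, with 5.25 ± 2.58 for Pcdhb17 and 6.64 ± 3.41 for Pcdhb16 (SD). In neither group did those 2 levels differ by more than the spread between tumours, which does not bear on their order within a tumour. Per kilobase, Pcdhb16 was above Pcdhb17 in each of KPH2 2 to 4 and in KP 5. It was below Pcdhb17 in KP 6 to 8 and in KPH2 1.

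Other beta members were led by different tumours. Pcdhb22, the last beta gene, was at 2.82, 8.21, 12.2 and 5.51 CPM in KP 5 to 8, at 4.32 CPM in KPH2 1 and at 6.21, 26.8 and 7.66 CPM in KPH2 2 to 4. Only KPH2 3 was above the KP range, the log2 fold change of 0.94 ± 0.62 SE was -0.03 without it, and Pcdhb22 was the most abundant beta member in that tumour. Pcdhb15 was at 2.97, 0.990, 1.19 and 0.302 CPM in KP 5 to 8, at 2.96 CPM in KPH2 1 and at 2.43, 4.60 and 8.68 CPM in KPH2 2 to 4 (log2 fold change 1.90 ± 0.70 SE, and 2.74 without KP 5). Here KPH2 3 and KPH2 4 were above all KP tumours and KPH2 2 was not. Pcdhb18 was at 4.08, 6.51, 4.74 and 4.38 CPM in KP 5 to 8, at 5.04 CPM in KPH2 1 and at 8.19, 5.0 and 18.0 CPM in KPH2 2 to 4 (1.08 ± 0.42 SE, and 0.43 without KPH2 4), so that KPH2 3 lay within the KP range. In KPH2 4 the 6 neighbours Pcdhb14, Pcdhb15, Pcdhb16, Pcdhb17, Pcdhb18 and Pcdhb19 were each more than 2-fold above their median over the 8 tumours. In KP 7 the high members were Pcdhb5, Pcdhb7, Pcdhb11, Pcdhb20, Pcdhb21 and, among gamma, Pcdhgb5, with Pcdhb20 at 15.1 CPM as its leading beta member.

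Pcdhb7, Pcdhb4 and Pcdhb3, beta members near the start of the family, went the other way. Their KPH2 2 to 4 values were at most 0.900 CPM, so they passed the low-count filter through KP values alone. A lower value in KPH2 is thus partly built into their selection. Pcdhb7, at chr18:37341702-37345207, was at 0.817, 6.51, 11.1 and 1.74 CPM in KP 5 to 8, at 1.04 CPM in KPH2 1 and at 0.450, 0.700 and 0.338 CPM in KPH2 2 to 4. The KP tumours themselves spanned a wide range, with KP 6 and KP 7 high and KP 5 close to KPH2 3, and the log2 fold change was -3.27 ± 0.97 SE. Pcdhb4 was at 0.891, 2.55, 1.19 and 1.58 CPM in KP 5 to 8, at 0.400 CPM in KPH2 1 and at 0.720, 0.801 and 0.676 CPM in KPH2 2 to 4 (-1.05 ± 0.46 SE). All 4 KPH2 tumours were below all KP tumours for Pcdhb4, by a narrow margin. Pcdhb3 was at 0.371, 1.84, 1.78 and 1.36 CPM in KP 5 to 8, at 1.44 CPM in KPH2 1 and at 0.900, 0.60 and 0.338 CPM in KPH2 2 to 4 (-1.04 ± 0.62 SE), with overlap at KP 5.

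**Figure D2:**
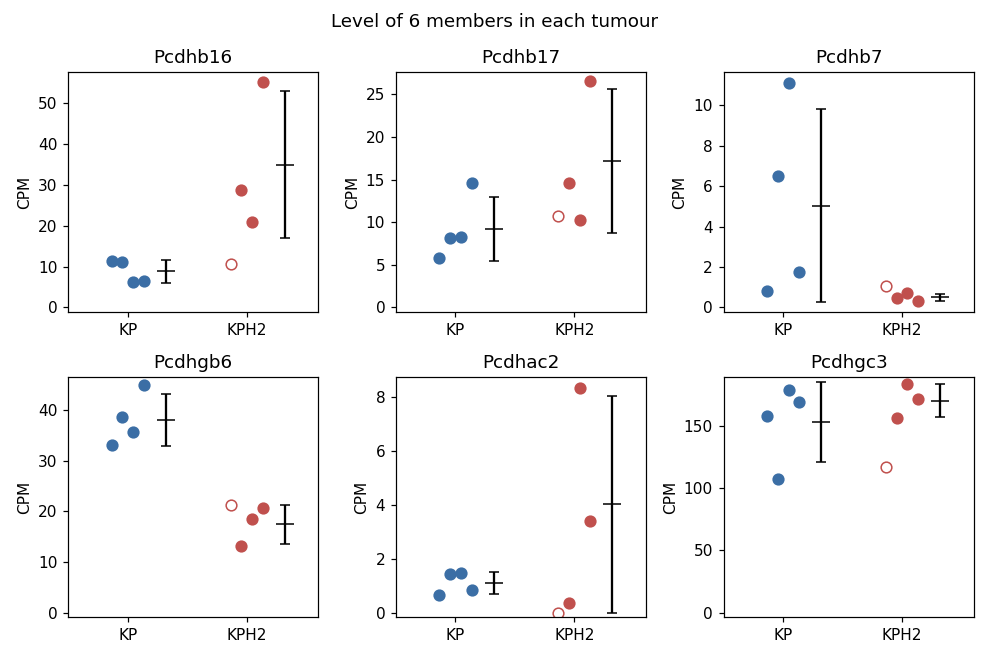
CPM of 6 members (vertical axes, a different scale in each panel) in the KP (blue) and KPH2 (red) tumours (horizontal axis); each point is a tumour, the open point is KPH2 1, and bars beside the points are mean ± SD of KP 5 to 8 and of KPH2 2 to 4. Pcdhb16 in KPH2 2 to 4 lies above all KP tumours and Pcdhgb6 in all 4 KPH2 tumours lies below them, while Pcdhb17, Pcdhac2 and Pcdhgc3 overlap.

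Among the alpha members, Pcdhac2 alone passed the filter. This C-type gene, at chr18:37143678-37187663 with its constant exons, is needed for the spacing of serotonergic axons. It was at 0.668, 1.41, 1.48 and 0.830 CPM in KP 5 to 8 and at 0.360, 8.31 and 3.38 CPM in KPH2 2 to 4, and it had no count in KPH2 1, where 3 counts would be 0.240 CPM. KPH2 3 and KPH2 4 were above the KP range and the other KPH2 tumours below it, so the log2 fold change of 1.90 ± 0.83 SE stands for 2 tumours, and was 0.78 without KPH2 3. The other 13 alpha members never exceeded 9 counts in a tumour. Among them Pcdha10 (0.148 ± 0.062 CPM in KP, 0.405 ± 0.434 in KPH2 2 to 4) and Pcdhac1 (0.127 ± 0.121 and 0.242 ± 0.251 CPM, SD) were the highest by mean, with values too low at this depth to set groups apart.

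Pcdhgc3 was the highest member of all. The protein of this C-type gamma gene is known to bind Axin1, a part of the Wnt pathway. It was at 158, 107, 179 and 169 CPM in KP 5 to 8, at 117 CPM in KPH2 1 and at 156, 183 and 171 CPM in KPH2 2 to 4. The groups overlapped and the log2 fold change was 0.15 ± 0.19 SE. Per kilobase of variable exon Pcdhgc3 stood at 60.3 CPM per kb over the 8 tumours, and the next member, Pcdhgb6, at 11.0. Pcdhgc3 alone made up 17.9% of gamma CPM in KP 6 and 35.4% in KPH2 2. The other C-type gamma genes were lower, and KP and KPH2 2 to 4 overlapped for both. Pcdhgc4, whose protein is needed for the survival of some neurons, was at 24.1 ± 4.32 CPM in KP and 20.7 ± 2.81 CPM in KPH2 2 to 4, and Pcdhgc5 at 18.7 ± 1.98 and 19.2 ± 2.18 CPM (SD). KPH2 1 was lower for both, with 17.1 and 11.3 CPM.

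Pcdhgb6, a gamma B gene at chr18:37742094-37841873 with its constant exons, had the largest negative difference of the gamma members. It was at 33.1, 38.6, 35.6 and 44.9 CPM in KP 5 to 8, at 21.3 CPM in KPH2 1 and at 13.1, 18.5 and 20.6 CPM in KPH2 2 to 4. All 4 KPH2 tumours were below all 4 KP tumours, KPH2 1 included, and the log2 fold change was -1.13 ± 0.20 SE. Pcdhga8 was at 32.8, 35.7, 27.6 and 29.7 CPM in KP 5 to 8, at 28.0 CPM in KPH2 1 and at 16.3, 23.6 and 13.8 CPM in KPH2 2 to 4 (-0.81 ± 0.22 SE), with KPH2 1 back inside the KP range. Pcdhgb5 was at 23.9, 21.4, 56.9 and 16.2 CPM in KP 5 to 8, at 23.6 CPM in KPH2 1 and at 13.0, 16.4 and 13.8 CPM in KPH2 2 to 4 (-1.04 ± 0.42 SE). Its mean in KP rested on KP 7, and KPH2 3 was level with KP 8. Pcdhga1, the first gamma gene, was at 5.57, 13.6, 5.78 and 1.89 CPM in KP 5 to 8, at 22.5 CPM in KPH2 1 and at 10.4, 27.4 and 2.37 CPM in KPH2 2 to 4 (1.02 ± 0.81 SE, 1.61 without KP 6 and -0.05 without KPH2 3), with KPH2 3 and KPH2 1 high and KPH2 4 and KP 8 low.

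In numbers, 1 member was called higher in KPH2 2 to 4 at an adjusted p under 0.05 (Pcdhb16) and 1 lower (Pcdhgb6), where 1.24% of the 14867 genes tested were called higher and 0.720% lower. Since these same results chose the family, nothing is read from the comparison. With KPH2 1 in the fit edgeR called no member, where 0.00675% of genes were called (1 gene), and 8 members were at an unadjusted p under 0.05, where 14.7% of genes were. With DESeq2 in place of edgeR 4 members were called, the added genes being Pcdhb7 and Pcdhga8, where 7.20% of genes were called. Without KP 6, KP 7, KP 8, KPH2 2 or KPH2 4, each in turn, 0 members were called, and without KPH2 3 only Pcdhb16 was. The calls over all genes also fell, from 292 to 130, 73, 130, 55 and 153 in that order, and to 159 without KPH2 3. At an unadjusted p under 0.05 there were 12 of the 39 members (30.8%) and 2640 of the 14867 genes (17.8%), from which nothing is read either. The KP and KPH2 2 to 4 values did not overlap for 2 members that were higher in KPH2 (Pcdhb13 and Pcdhb16), where 8.73% of all genes did so, and for 4 that were lower (Pcdhb4, Pcdhb7, Pcdhga8 and Pcdhgb6), where 8.15% did. Of the lower ones, Pcdhb4 and Pcdhb7 had passed the filter through KP values alone. With KPH2 1 counted, Pcdhb4 and Pcdhgb6 still did not overlap, where 4.46% of all genes were lower without overlap. KPH2 1, which the 7-tumour contrast did not use, lay within the KP range for 26 of the 39 members, above it for 2 (Pcdhga1 and Pcdhga5) and below it for 11. The matching shares over all genes were not computed, so nothing is read from these counts.

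Beta and gamma had medians of different sign. The median log2 fold change was 0.67 over the 16 beta members and -0.39 over the 22 gamma members that passed, beside -0.02 over all genes tested. The beta median depended on which members were counted. With no filter it was -0.45, since 10 beta members had a positive and 11 a negative value, and without KPH2 3 it was -0.03. The sum of beta CPM is carried by the abundant members and had a log2 ratio of 0.76, the gamma sum one of -0.25. Of the gamma members 17 were negative and 5 positive.

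Members of the same sign lay together along the array in the 7-tumour fit, in stretches whose limits were set after the values were seen. The sign of Pcdhb9, Pcdhb20, Pcdhb22, Pcdhga1, Pcdhga6, Pcdhgb1 and Pcdhgc5 was not the same under all alternatives. Of Pcdhb1 to Pcdhb12, 6 members passed the filter and 5 of these were lower in KPH2 2 to 4 (Pcdhb9 was the exception), while with no filter 10 were lower and 1 higher. Among the 5, Pcdhb3, Pcdhb4 and Pcdhb7 had passed the filter through KP values alone. The sum over Pcdhb1 to Pcdhb12 was 5.79, 23.1, 28.2 and 12.2 CPM in KP 5 to 8, 8.07 CPM in KPH2 1 and 7.29, 9.51 and 5.86 CPM in KPH2 2 to 4. KP 6, KP 7 and KP 8 were above all KPH2 tumours, and KP 5 was below them. Of the 10 members from Pcdhb13 to Pcdhb22, 9 had a positive difference (Pcdhb20 was the exception), and their sum was 40.3, 51.9, 67.6 and 44.3 CPM in KP 5 to 8, 43.4 CPM in KPH2 1 and 78.2, 94.2 and 152 CPM in KPH2 2 to 4. For this sum KPH2 2 to 4 were above all KP tumours and KPH2 1 was among them. Pcdhga1, Pcdhga2 and Pcdhga3 were positive, with wide overlap, and the 16 members from Pcdhgb1 to Pcdhga12 were all negative in the 7-tumour fit, though Pcdhgb1 (-0.02 ± 0.43 SE) and Pcdhga6 (-0.18 ± 0.26 SE) were near 0. The sum over those 16 members was 390, 420, 418 and 296 CPM in KP 5 to 8, 349 CPM in KPH2 1 and 215, 296 and 252 CPM in KPH2 2 to 4. KPH2 3 was level with KP 8, and KPH2 1 was within the KP range. Neighbouring genes of the array share enhancers and are not independent.

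**Figure D3:**
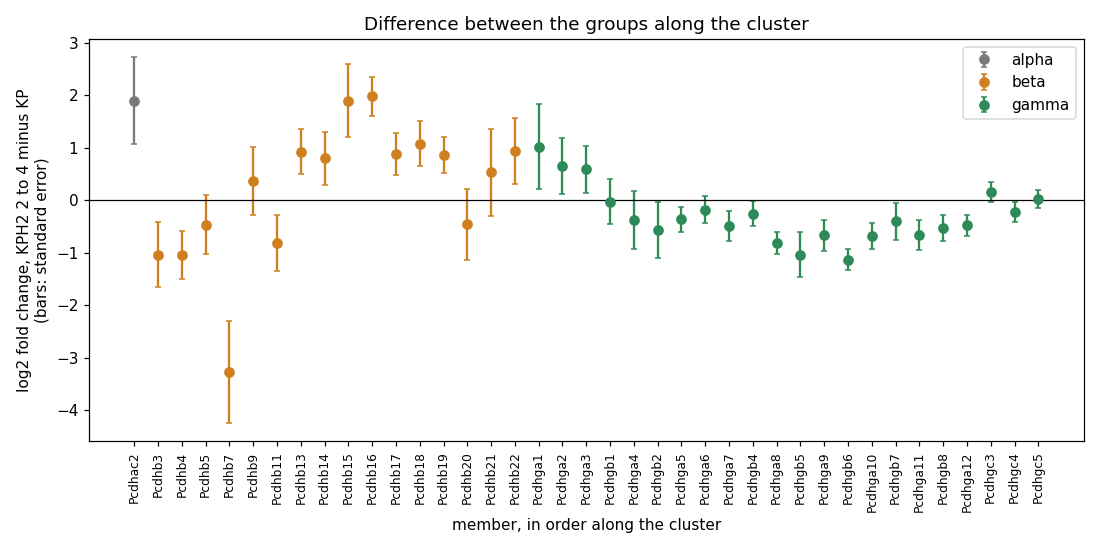
Log2 fold change of KPH2 2 to 4 over KP 5 to 8 (vertical axis, points; bars are the standard error of the fit) for the 39 members that passed the low-count filter, in gene order (horizontal axis), with alpha in grey, beta in orange and gamma in green. The values run from -3.27 for Pcdhb7 to 1.98 for Pcdhb16, positive from Pcdhb13 to Pcdhga3 except for Pcdhb20, and at or below 0 from Pcdhgb1 to Pcdhga12.

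The beta members in particular varied between tumours of the same genotype. Among KP tumours the highest value was a median of 3.97 times the lowest for the beta members and 1.72 times for the gamma members, beside 1.67 times for all genes tested. The median standard error of the log2 fold change was 0.42 over the 39 members and 0.25 over all genes. The beta members were also the lower ones, at 0.986 to 18.8 CPM by mean over the 8 tumours, beside 10.7 to 155 CPM for the gamma members.

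**Figure D4:**
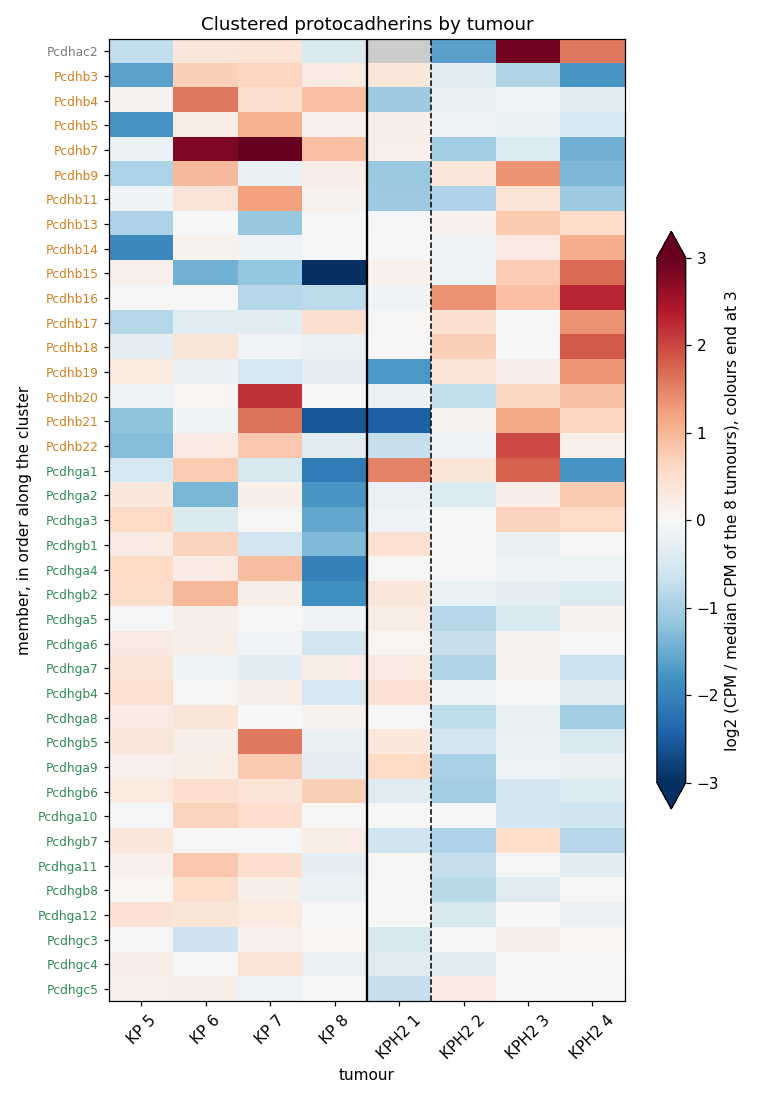
Log2 of each member's CPM over its own median of the 8 tumours (colour, red above and blue below the median, ending at 3 in either direction) for the 39 members that passed the filter in gene order (rows, with name colours grey for alpha, orange for beta and green for gamma) in each tumour (columns; KP left of the solid line, KPH2 1 between the lines). KPH2 4 is red from Pcdhb14 to Pcdhb19, KP 8 is blue from Pcdhga1 to Pcdhgb2, and the grey cell is the Pcdhac2 value of KPH2 1, which had no count.

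A run of adjacent low genes was seen in KP 8, a tumour with Epas1 intact. The 6 adjacent genes Pcdhga1, Pcdhga2, Pcdhga3, Pcdhgb1, Pcdhga4 and Pcdhgb2 were at 1.89, 3.40, 4.15, 4.68, 3.70 and 3.92 CPM there, each more than 2-fold below its median over the 8 tumours. Their sum was 21.7 CPM (288 counts) in KP 8 and between 69.2 CPM in KPH2 2 and 95.8 CPM in KPH2 3 in the other tumours. The next gene, Pcdhga5, was at 14.9 CPM in KP 8 and at 15.9, 17.8 and 15.9 CPM in KP 5 to 7. From Pcdhga5 to Pcdhga12 the sum was 284 CPM in KP 8, 333 to 366 CPM in the other KP tumours, 300 CPM in KPH2 1 and 177 to 261 CPM in KPH2 2 to 4. The step in KP 8 thus lay between Pcdhgb2 and Pcdhga5. The stretch was noticed in these values and was not tested. The level per kilobase also differed along the gamma A and B genes. In KP, Pcdhga1 stood at 2.61 ± 1.91 CPM per kb, Pcdhga5 at 6.33 ± 0.49 and Pcdhgb6 at 14.8 ± 1.98, and in KPH2 2 to 4 the same genes were at 5.20 ± 4.97, 4.92 ± 1.66 and 6.79 ± 1.5 CPM per kb (SD).

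**Figure D5:**
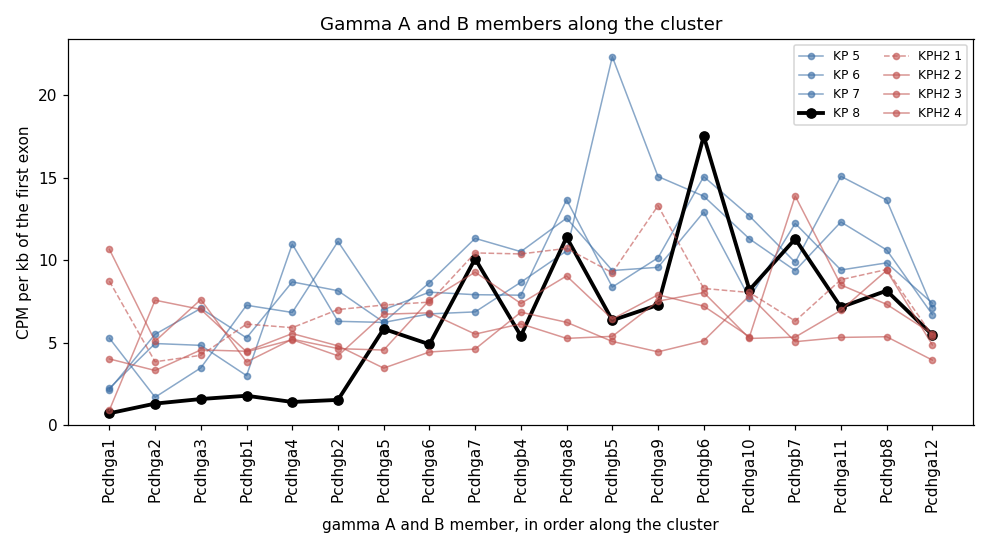
CPM per kilobase of variable exon (vertical axis) of the 19 gamma A and B members in gene order (horizontal axis), with a line for each tumour: KP 5 to 7 blue, KP 8 thick black, KPH2 2 to 4 red and KPH2 1 dashed red. KP 8 lies below 2 CPM per kb from Pcdhga1 to Pcdhgb2 and joins the other tumours from Pcdhga5, and KP 7 peaks at Pcdhgb5.

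Of the genes known to act on the array, none passed the test between the groups, which was edgeR's over all genes. All 11 CTCF and cohesin genes were tested, and 0 were called by edgeR, 0 by DESeq2 and 0 at an unadjusted p under 0.05. Their median log2 fold change was 0.08, with Rad21, a cohesin subunit, at 0.15 ± 0.14 SE and Nipbl, the cohesin loader, at 0.04 ± 0.15 SE. Of 12 genes tied to silencing of protocadherin promoters edgeR called 0, DESeq2 called 1 (Dnmt3a) and 2 were at an unadjusted p under 0.05, with a median of 0.11. Trim28, a co-repressor, was at 0.37 ± 0.15 SE and Dnmt1, the maintenance DNA methyltransferase, at -0.18 ± 0.25 SE. Dnmt3a, a de novo DNA methyltransferase named after its values were seen, was at 93.9, 99.2, 93.4 and 92.5 CPM in KP 5 to 8, at 106 CPM in KPH2 1 and at 130, 195 and 154 CPM in KPH2 2 to 4. All 4 KPH2 tumours were above all KP tumours and the log2 fold change of 0.76 ± 0.16 SE missed the threshold (adjusted p = 0.0547, edgeR). Its adjusted p was 0.00299 to 0.197 under the alternatives and passed with DESeq2 alone (0.00299).

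The relatives and partners of the family gave no call by edgeR either. Of 12 nonclustered protocadherins, which lie elsewhere in the genome, 11 were tested and none passed (3 at an unadjusted p under 0.05, 0 by DESeq2), with 3 positive and 8 negative values and a median of -0.52. The most abundant were Pcdh7 (420 ± 110 CPM in KP, 403 ± 43.0 CPM in KPH2 2 to 4, SD) and Pcdh19 (log2 fold change -0.61 ± 0.21 SE). Among 10 proteases that cut protocadherins at the membrane and kinases that bind their tails none passed (1 at an unadjusted p under 0.05, 0 by DESeq2). The WAVE complex, which links membrane receptors to actin, had 8 genes tested and none passed (0 at an unadjusted p under 0.05, 0 by DESeq2). Of 12 classical cadherins and catenins tested none passed by edgeR, with 10 positive values, 4 at an unadjusted p under 0.05 (17.8% of all genes were) and 4 called by DESeq2 (7.20% of all genes were).

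Some markers of muscle, neurons and mesenchymal cells differed between KP and KPH2 2 to 4, and their part in the protocadherin values was not tested. All 15 skeletal muscle markers were positive, with a median log2 fold change of 2.12 and a summed level of 317 to 987 CPM in KP, 378 CPM in KPH2 1 and 934 to 4458 CPM in KPH2 2 to 4. KPH2 1 was thus within the KP range. Of the 15, edgeR called 1, DESeq2 called 12 and 15 were at an unadjusted p under 0.05. Beside this and the marker lists below, 17.8% of all genes were at an unadjusted p under 0.05 and DESeq2 called 7.20%. The one called by edgeR was Eno3, the muscle enolase (2.98 ± 0.31 SE, adjusted p = 0.00922, edgeR). Its adjusted p was 5.79e-17 to 0.159 under the alternatives, and the call was lost only with all 8 tumours (0.159).

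Neuron markers are of interest because protocadherins are best known there. Of 12 listed, 9 were tested, 5 positive and 4 negative, and their sum was 80.4 to 272 CPM in KP, 91.4 CPM in KPH2 1 and 431 to 691 CPM in KPH2 2 to 4, so that KPH2 1 was again within the KP range. EdgeR called 1, DESeq2 called 2 and 3 were at an unadjusted p under 0.05. Mtap2, which encodes the dendritic protein MAP2, was at 20.5, 15.3, 12 and 8.0 CPM in KP 5 to 8, at 14.5 CPM in KPH2 1 and at 46.5, 122 and 155 CPM in KPH2 2 to 4, and passed (2.95 ± 0.45 SE, adjusted p = 0.0257, edgeR). Its adjusted p was 2.61e-09 to 0.169 under the alternatives, and the call was lost with all 8 tumours (0.169) and without KP 6 (0.0616), KP 7 (0.0708), KP 8 (0.0560), KPH2 3 (0.0579) or KPH2 4 (0.0549). The neurofilament genes Nefl and Nefm and the stathmin gene Stmn2 made up most of the rest and did not pass. The defining neuronal genes Rbfox3 (at most 0.450 CPM in a tumour) and Elavl3 (at most 0.445 CPM) were near 0 in all 8 tumours. Other listed genes were present: Tubb3, a neuronal tubulin, ran from 4.60 CPM in KP 7 to 21.2 CPM in KPH2 2, and Snap25, a synaptic protein gene, was at 9.75 CPM in KPH2 1 and at most 2.38 CPM in the others.

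Of the 11 Schwann cell markers reported here, 9 were tested, with 6 positive and 3 negative values, and edgeR called 0 of these (2 at an unadjusted p under 0.05, 0 by DESeq2). Their summed level was 114 to 171 CPM in KP, 109 CPM in KPH2 1 and 116 to 129 CPM in KPH2 2 to 4. The defining genes Sox10 (at most 0.891 CPM in a tumour) and Foxd3 (at most 0.10 CPM) were near 0 in all 8 tumours. Myelin genes of the list were present, with Pmp22 at 41.0 to 97.3 CPM, Mbp at 8.47 to 15.4 CPM and Prx at 7.91 to 16.6 CPM.

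Among the fibroblast and mesenchymal markers 9 of 10 were negative, with a median of -0.61 and sums of 20156 to 43134 CPM in KP, 28004 CPM in KPH2 1 and 21493 to 30466 CPM in KPH2 2 to 4. EdgeR called 1, DESeq2 called 2 and 4 were at an unadjusted p under 0.05. Pdgfra, a receptor of mesenchymal cells, passed (-2.02 ± 0.27 SE, adjusted p = 0.0183, edgeR, and 1.31e-10 to 0.160 under the alternatives), and the call was lost with all 8 tumours (0.160) and without KPH2 2 (0.0719). All 10 macrophage markers were negative and none passed by edgeR (4 at an unadjusted p under 0.05, 1 by DESeq2). Their sums were 2419 to 4432 CPM in KP, 2305 CPM in KPH2 1 and 1792 to 2686 CPM in KPH2 2 to 4. Of 10 endothelial markers 8 were negative and none passed by edgeR (5 at an unadjusted p under 0.05, 3 by DESeq2), with sums of 356 to 656 CPM in KP, 261 CPM in KPH2 1 and 357 to 363 CPM in KPH2 2 to 4. Of 8 adipocyte markers 3 were tested and none passed (1 at an unadjusted p under 0.05, 0 by DESeq2), with sums of 11.6 to 41.9 CPM in KP, 15.3 CPM in KPH2 1 and 12.5 to 63.7 CPM in KPH2 2 to 4. Car3, which muscle also expresses, gave 59.0 of the 63.7 CPM in KPH2 3, whereas Fabp4 averaged 9.66 CPM in KP and 3.67 CPM in KPH2 2 to 4, and Adipoq, Lep, Plin1 and Cidec also had lower means in KPH2 2 to 4.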

How the data were processed

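RNA-seq was made from 8 UPS sections (4 KP, 4 KPH2). Per the submitters' notes and the methods, the authors called bases with CASAVA 1.8.2, used STAR 2.4 for alignment (GRCm38) and HTSeq 0.6.1 to count uniquely aligned reads over RefSeq genes. The overlap mode and strand setting are not given in the sources used here. The deposited counts are unnormalized. The deposited log2 tables hold DESeq2 1.6 rlog values, used only as an alternative. Here genes were filtered with filterByExpr (10 counts minimum, 15 in total), scaled by TMM and fitted with edgeR 4.0.16 (quasi-likelihood, robust, R 4.3.3, common biological coefficient of variation 0.313), with Benjamini-Hochberg adjustment over all genes tested at 0.05. CPM use TMM library sizes. CPM per kb use the RefSeq exon length for beta members. For alpha and gamma members they use the longest matching first exon in the GENCODE annotation, outside the shared constant exons. The members and gene lists were chosen with earlier results of these data known. Named members were Pcdhb16, Pcdhb17, the C-type genes, the 3 highest of each family and the 5 largest changes each way. Others were Epas1, called list genes and the 2 highest of the protocadherin, CTCF and cohesin, and silencing lists. Each library is a tumour, and the study's data are biological replicates per its methods. Zeros and floors cover counting error only. No protocadherin sequence is printed. A further allele that both groups carry and 1 Schwann cell marker, left out of its list after its values were seen, are not reported here.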

Additional observations from a re-analysis of the deposited data

Results flagged for a closer look

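In groups of 4 tumours, a value was singled out where its gap to the nearest tumour was a larger share of the group's range than Dixon's critical value allows, which chance gives in about 1 of 20 groups. Of 60 groups examined 4 were singled out. Pcdhb22 in KPH2 3 (26.8 CPM) was far above the other KPH2 tumours, with a ratio of 0.851. Epas1 in KP 5 (59.2 CPM) was below the other KP tumours, with a ratio of 0.867. Rad21 in KPH2 2 (379 CPM) was above the other KPH2 tumours, with a ratio of 0.926. Pdgfra in KPH2 1 (639 CPM) was above the other KPH2 tumours, with a ratio of 0.880.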

How the results depend on the processing

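Alternatives were all 8 tumours, other size factors, upper-quartile scaling, no filter, a mean count of at least 50, DESeq2 1.42.0, the rlog values and leaving out each tumour. The 292 genes called became 1 with all 8 tumours, 1175 with DESeq2, and 55 to 349 without 1 tumour. The 2 members called became 0 with all 8 tumours, 4 with DESeq2, and 0 to 2 without 1 tumour. The 3 genes called among those reported of the other lists became 0 with all 8 tumours, 25 with DESeq2, and 2 to 7 without 1 tumour. The beta median of 0.67 became -0.45 with no filter, -0.46 with DESeq2 (both count low members), and -0.03106 (without KPH2 3) to 0.8806 without 1 tumour. The alpha median was 0.53 to 2.45 and had no value at a mean count of 50, where no alpha member was left. It was the value of Pcdhac2 alone, except with no filter and with DESeq2, where members of at most 9 counts were added. The gamma median kept its sign, from -0.44 to -0.21. Of the 39 members 27 had a value in all 14 settings, and 22 of these kept their sign in all of them. The other 12 had a value in 10 to 13 settings, and 10 kept their sign there. Pcdhb9, Pcdhb20, Pcdhb22, Pcdhga1, Pcdhga6, Pcdhgb1 and Pcdhgc5 did not keep it. Pcdhb16 was called in 7 of 13 alternatives (log2 fold change 1.16 to 2.25, rlog included) and Pcdhgb6 in 6 of 13 (-1.27 to -0.69). The causes were not tested. No paired analysis was made, because KP and KPH2 tumours came from different mice of different genotypes and the labels name no pairs. Low counts limit the alpha and early beta members most.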

Other observations

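Cdh15, the cadherin of muscle precursor cells, named after its values were seen, was at 0.668, 8.49, 0.148 and 0.528 CPM in KP 5 to 8, at 0.080 CPM in KPH2 1 and at 33.5, 77.1 and 34.0 CPM in KPH2 2 to 4. KPH2 2 to 4 were above all KP tumours and KPH2 1 was below them, and the difference missed the threshold over all genes (log2 fold change 4.40 ± 1.03 SE, adjusted p = 0.0741, edgeR). Its adjusted p was 0.0185 to 0.279 under the alternatives and passed with DESeq2 (0.0187) and without KP 6 (0.0185), where the log2 fold change was 6.58.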
